A study of Homo sapiens with 30 samples.

Results

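A group of 54 genes whose proteins build the kinetochore, run the spindle assembly checkpoint, assemble the spindle or divide the cell was followed through RNA-seq libraries of H1299 cells, a human lung carcinoma line that lacks p53. The members were a fixed list of gene symbols, not chosen by a threshold, but the list was drawn up with earlier results of these data known. All 54 were found among the 39359 genes of the deposited count table and passed the filter on low counts. Cells were transfected transiently with pGFP, which expresses GFP alone, or with a vector that expresses GFP and wild type p53, RW mutant p53 (arginine to tryptophan at codon 248) or p53 from a template carrying O6-methylguanine in that codon (p53 O6-meG). The p53 TM cultures received the O6-meG vector together with 10 µM O6-benzylguanine (O6-bzG), which inactivates the repair protein AGT and so leaves the lesion in place. Cells positive for GFP were collected by sorting 6 h or 24 h later, which gave 10 groups. Each group had 3 replicates, except that p53 O6-meG and p53 TM had 2 at 6 h here, because the titles of 2 libraries name both groups. No pGFP or wild type p53 culture was given O6-bzG, so the drug and the lesion left unrepaired by AGT cannot be told apart in p53 TM.

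Kinetochores are the protein plates by which chromosomes attach to spindle microtubules. An inner layer sits on centromeric chromatin, an outer layer binds microtubules, and the checkpoint holds back anaphase until every kinetochore is attached. Many of their genes, though not all, are transcribed in waves that peak in G2 and mitosis. Repression of many of them by p53 is known to run through p21, the product of CDKN1A, and the DREAM and MuvB complexes, which bind an element named the cell cycle homology region. In bulk RNA such as this, fewer cells in G2 and mitosis and less RNA per cell cannot be told apart.

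Libraries held 32302699 to 71950532 counts on genes, with a median of 44424643. CDKN1A, the reference for p53 activity, lay at 44.6, 50.2 and 49.2 CPM (counts over a scaled library size, defined below) in pGFP at 24 h and at 544, 788 and 513 CPM with wild type p53. Its p53 TM libraries held 368, 422 and 289 CPM. KRT8, KRT18, VIM and CDH2 were present in every library, the lowest of them CDH2 at 43.6 CPM or more. Other epithelial and lung markers did not exceed 1.2 CPM (EPCAM, CDH1, NKX2-1, SFTPB, SFTPC, SCGB1A1, NAPSA), so the lung label rests on the name of the line. Markers of leukocytes, endothelium and fibroblasts reached at most 1.99 CPM (COL1A1).

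For each library the median was taken over the 54 genes of the difference in log2 CPM from the pGFP mean of the same time. The wild type p53 libraries had medians of −0.82, −0.59 and −0.35, p53 O6-meG −0.82, −0.50 and −0.34, and p53 TM −0.50, −0.25 and −0.21, in the order of replicates 1, 2 and 3. RW mutant p53 stayed at −0.09, 0.06 and −0.03, within 0.1 of the pGFP mean as the pGFP libraries themselves did. Replicate 1 held the lowest and replicate 3 the highest median in wild type p53, p53 O6-meG and p53 TM alike. CDKN1A did not follow that order, since its highest level lay in replicate 2 of each of these groups. Together the 54 genes took 0.856% to 0.861% of all counts in pGFP at 24 h, 0.505% to 0.636% with wild type p53, and 0.592% to 0.712% in p53 TM. At 6 h the medians of all libraries with a group lay between −0.09 and 0.06 on the same scale.

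**Figure D1:**
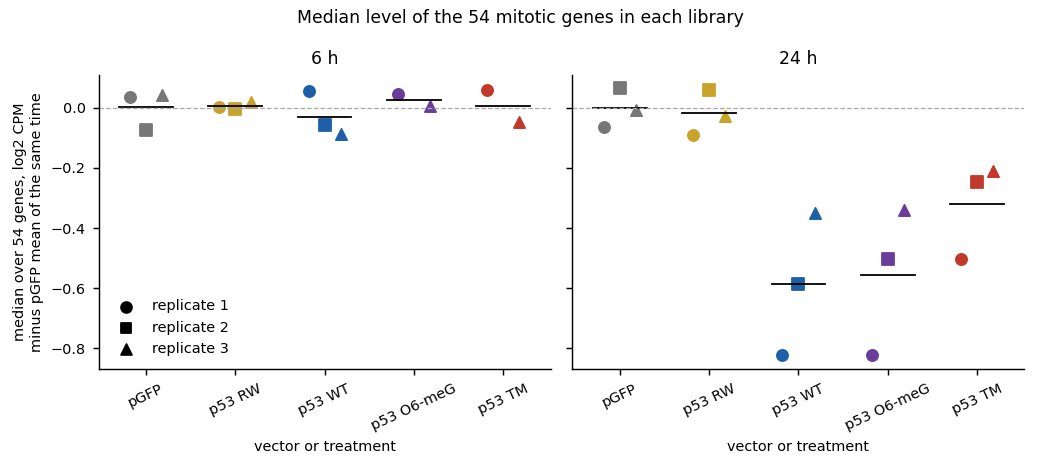
Each point is 1 library, and its height is the median over the 54 genes of log2 CPM minus the mean of pGFP at the same time; black lines are group means and symbols mark the replicate number. At 24 h all wild type p53, p53 O6-meG and p53 TM libraries lie at −0.21 or lower, while pGFP and RW mutant p53 lie between −0.09 and 0.07.

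To ask which of the genes p53 repressed, wild type p53 was compared with pGFP at 24 h in a fit of all genes, with a call at an adjusted P under 0.05. Of the 54 members 45 were lower and 2 were higher, beside 14.5% and 20.5% of all 21335 genes tested. With library size alone as the scaling 49 were lower and 2 higher, beside 25.3% and 16.1% of all genes. The fit has no term for the replicate number. With that number as a block 49 were lower and 3 higher, beside 21.6% and 26.7% of all genes. Without it the median log2 fold change of the members was −0.57, against 0.0081 over all genes. In 43 members every wild type p53 library lay below every pGFP library, which held for 19.7% of all genes. The falls were modest: 4 members passed 2-fold (FBXO5, TTK, ERCC6L and CCSAP), beside 1.99% of all genes. Of the 47 calls in both directions 39 held under all 17 alternatives run, each left-out library among them, and those lost under at least 1 were CENPA, CENPH, MAD2L1, AURKA, TPX2, DLGAP5, ECT2 and PTTG1.

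FBXO5, which encodes EMI1, an inhibitor of the anaphase promoting complex, had the smallest P value. Its level was 65.4, 68.9 and 61.3 CPM in pGFP at 24 h and 28.4, 33.4 and 31.4 CPM with wild type p53. The groups were far apart, with a log2 fold change of −1.07 (SE 0.10, adjusted P = 9.92e-09). TTK, the checkpoint kinase MPS1, held 179, 190 and 184 CPM in pGFP and 65.9, 90.9 and 111 CPM with wild type p53, a log2 fold change of −1.05 (SE 0.15, adjusted P = 2.78e-06). ERCC6L, the helicase PICH on stretched DNA between separating chromatids, held 61.3, 65.6 and 62.5 CPM in pGFP and 23.7, 31.8 and 38.5 CPM with wild type p53, a log2 fold change of −1.01 (SE 0.16, adjusted P = 2.1e-05). CCSAP, a protein of centrioles and spindle microtubules, fell from 30.4, 32.6 and 28.3 CPM to 13.04, 14.6 and 17.8 CPM (log2 fold change −1.005, SE 0.11, adjusted P = 7.96e-08). For all 4 genes every wild type p53 library lay below every pGFP library. FBXO5 lies on the minus strand of chromosome 6 at 152970519 to 152983579, ERCC6L on the minus strand of the X chromosome at 72204657 to 72239027 and CCSAP on the minus strand of chromosome 1 at 229321011 to 229343294 (hg38, GENCODE v44). Each of these overlaps a gene on the other strand, so their counts are uncertain as far as the strand setting of the counting is unknown. TTK, on the plus strand of chromosome 6 at 80003887 to 80042527, overlaps none.

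In the outer kinetochore and corona 12 of 12 members were lower, with a median log2 fold change of −0.65 (range −0.97 to −0.34). SPC25 and NDC80, subunits of the microtubule-binding NDC80 complex, stood at −0.97 (SE 0.13) and −0.83 (SE 0.12), and the kinetochore motor CENPE at −0.90 (SE 0.12). ZWINT, which docks on KNL1, held 145, 138 and 128 CPM in pGFP and 83.7, 84.8 and 96.9 CPM with wild type p53 (log2 fold change −0.63, SE 0.08, adjusted P = 2.41e-07). DSN1, a subunit of the MIS12 complex, went from 56.1, 59.8 and 53.1 CPM to 28.1, 35.6 and 33.4 CPM (log2 fold change −0.80, SE 0.10, adjusted P = 4.8e-07). In neither did the groups overlap. The other members of this layer were NUF2, SKA1, CENPF, SPC24, SKA3, KNL1 and MIS12, the last with the smallest fall. The spans of NUF2, SPC24, SPC25 and MIS12 overlap that of a coding gene on the other strand, so their counts are uncertain in the same way. Whether reads were shared was not measured.

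The 8 members of the inner kinetochore moved less than those of the outer layer, with 6 of 8 lower and a median of −0.49. CENPQ and CENPO of this layer, outside the member list and given below, fell by more than any of the 8. CENPN, which reads the CENPA nucleosome, held 108, 108 and 106 CPM in pGFP and 65.9, 71.2 and 80.4 CPM with wild type p53 (log2 fold change −0.56, SE 0.08, adjusted P = 2.67e-06). CENPI held 36.0, 43.0 and 41.4 CPM in pGFP and 19.6, 28.8 and 29.7 CPM with wild type p53, a log2 fold change of −0.63 (SE 0.14, adjusted P = 0.000836). Both were separate from pGFP in every library. CENPC, CENPA, the centromeric histone, CENPK and CENPH were also called lower, between −0.56 and −0.22. CENPM stood at −0.02 (SE 0.11) and CENPU at 0.0048 (SE 0.08), neither called.

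Among the 5 checkpoint genes, TTK, BUB1, BUB1B and MAD2L1 were lower and BUB3 was higher. BUB3, the partner that brings BUB1 and BUB1B to kinetochores, held 131, 156 and 147 CPM in pGFP and 215, 225 and 189 CPM with wild type p53. Every wild type library lay above every pGFP library, with a log2 fold change of 0.54 (SE 0.10, adjusted P = 7.14e-05). BUB1 stood at −0.58 and BUB1B at −0.61 in the same comparison. BUB3 and its binding partners thus differed in direction.

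Of 8 genes of the chromosomal passenger complex and of sister chromatids 6 were lower, with a median of −0.74. SGO1, the protector of centromeric cohesion, held 28.8, 28.4 and 26.3 CPM in pGFP and 13.6, 13.5 and 17.8 CPM with wild type p53 (log2 fold change −0.90, SE 0.11, adjusted P = 3.86e-07). TOP2A, the topoisomerase that untangles sister chromatids, held 377, 413 and 374 CPM in pGFP and 189, 254 and 242 CPM with wild type p53 (log2 fold change −0.77, SE 0.12, adjusted P = 8.26e-06). Both were lower in all libraries, as was INCENP, the scaffold of the passenger complex, at −0.77. CDCA8, SGO2 and ERCC6L completed the lower members. AURKB, the kinase of the complex, stood at −0.38 (SE 0.17, adjusted P = 0.0813) and BIRC5, or survivin, at −0.19 (SE 0.12).

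All 8 genes of spindle assembly were lower (median −0.64, range −1.005 to −0.29) and so were the 4 genes of cytokinesis (median −0.54, range −0.66 to −0.43). NUSAP1, which bundles microtubules near chromosomes, held 186, 190 and 185 CPM in pGFP and 101, 111 and 124 CPM with wild type p53 (log2 fold change −0.74, SE 0.09, adjusted P = 3.71e-07). ASPM and CKAP2L, both at spindle poles, stood at −0.88 and −0.83, HMMR at −0.54, the kinase AURKA at −0.54, its activator TPX2 at −0.39 and DLGAP5 at −0.29. ANLN, anillin of the contractile ring, held 435, 444 and 433 CPM in pGFP and 237, 274 and 317 CPM with wild type p53 (log2 fold change −0.66, SE 0.11, adjusted P = 4.54e-05). RACGAP1, of the centralspindlin complex, went from 224, 240 and 235 CPM to 127, 156 and 180 CPM (log2 fold change −0.60, SE 0.11, adjusted P = 0.000142). The midzone bundler PRC1 stood at −0.49 and ECT2, the exchange factor that activates RhoA, at −0.43. For NUSAP1, ANLN and RACGAP1 no wild type library reached the pGFP range.

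Genes of mitotic entry and exit were mixed, with 4 of 7 lower and 1 higher. Beside FBXO5, the lower ones were CDC25C, UBE2C and ESPL1. CDC25C, the phosphatase that activates CDK1, held 36.8, 34.8 and 35.2 CPM in pGFP and 17.6, 19.2 and 23.6 CPM with wild type p53 (log2 fold change −0.82, SE 0.13, adjusted P = 1.02e-05). UBE2C, the ubiquitin-conjugating enzyme of the anaphase promoting complex, stood at −0.76, and ESPL1, separase, at −0.49. PTTG1, securin, held 226.8, 223 and 234 CPM in pGFP and 298, 277 and 263 CPM with wild type p53, a rise of 0.29 on the log2 scale (SE 0.06, adjusted P = 0.00068) with no overlap. Its call was lost without the filter on low counts (adjusted P = 0.0777), and the gene has near-identical copies elsewhere in the genome that can share reads. CDC20, which loads substrates onto the complex, stood at 0.12 (SE 0.14) and CDKN3 at −0.14 (SE 0.10), neither called.

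The 2 transcription factors of mitotic genes differed. MYBL2 was lower, from 214, 214 and 218 CPM in pGFP to 148, 150 and 177 CPM with wild type p53 (log2 fold change −0.44, SE 0.07, adjusted P = 3.19e-05). FOXM1 held 254, 233 and 261 CPM in pGFP and 223, 186 and 240 CPM with wild type p53, which overlap, and its log2 fold change of −0.20 (SE 0.11) was not called (adjusted P = 0.14). With the replicate number as a block, which the 24 h libraries share, FOXM1, AURKB, BIRC5, CDC20 and CDKN3 were called as well (adjusted P of 0.00357, 8.43e-06, 0.00485, 0.0443 and 0.0384), CDC20 as higher and the others as lower.

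**Figure D2:**
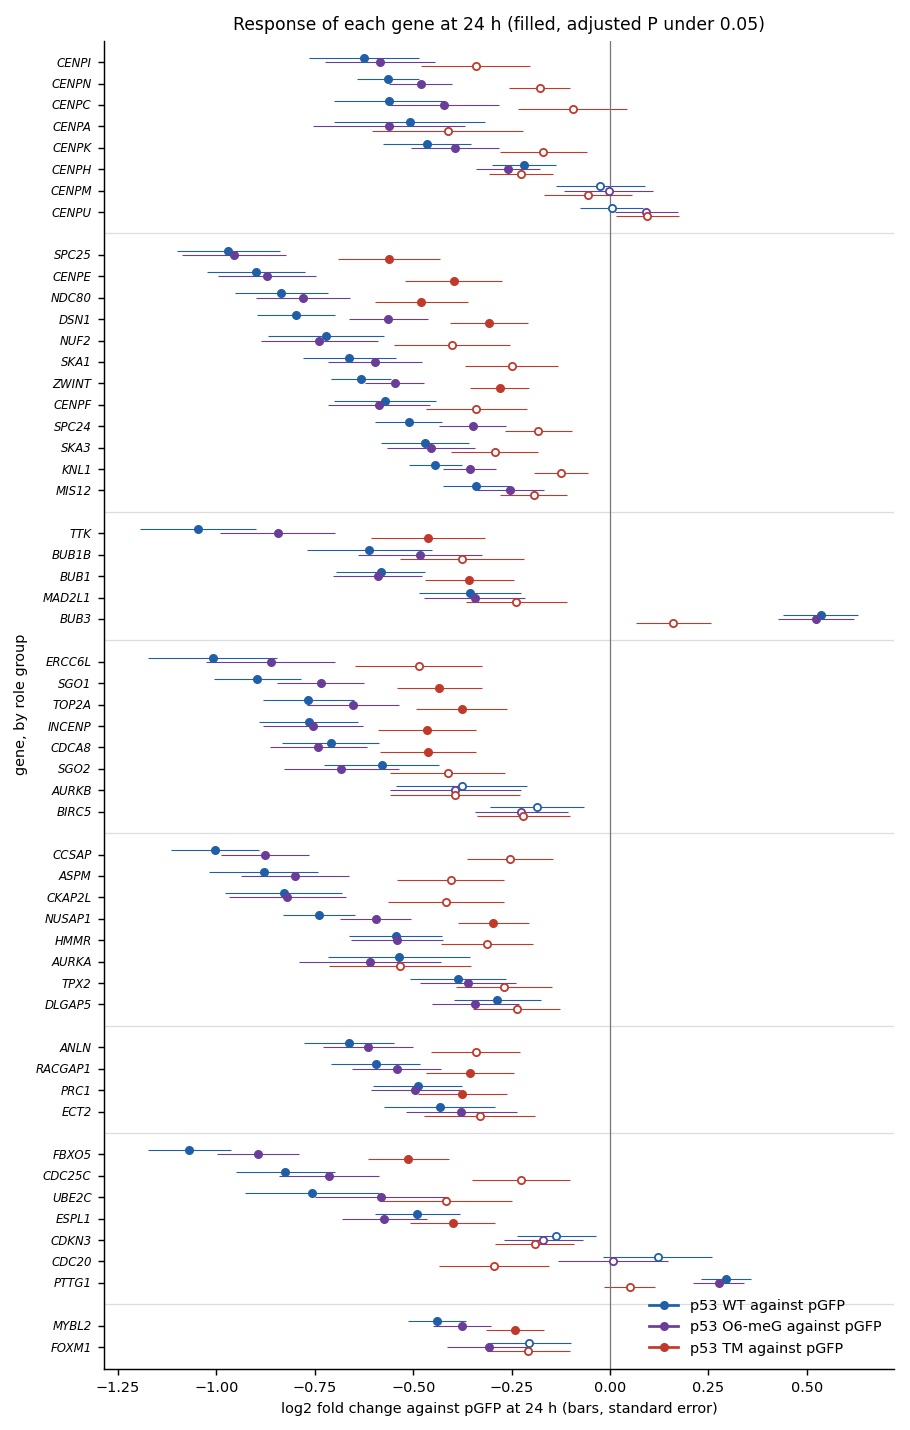
Each row is a gene, grouped by role, and points give its log2 fold change against pGFP at 24 h with the standard error for wild type p53, p53 O6-meG and p53 TM; filled points have an adjusted P under 0.05. The red points of p53 TM lie nearer to 0 than the blue points of wild type p53 for most rows, and BUB3 and PTTG1 stand to the right of 0.

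Because the members moved together, the 250 bases before the start of each gene were searched for letters of known cell cycle elements, on both strands. RefSeq promoters of GRCh38.p14 were matched by symbol for 43 members, and those of AURKA, BIRC5, BUB3, CENPH, CENPM, FOXM1, KNL1, RACGAP1, TPX2, TTK and UBE2C were not. The cell cycle homology region (letters TTTGAA) was found in 19 of 43 (44.2%) beside 13.6% of 27305 promoters, and the CCAAT box (letters CCAAT) in 29 of 43 (67.4%) beside 33.0%. Both stood together in 17 members (39.5%) and in 4.85% of all promoters, and 22 members (51.2%, against 10.0%) held at least 2 CCAAT. The variant TTTAAA was found in 6 members (14.0%, against 11.4%), and the E2F letters TTTGGCGC, TTTCGCGC, TTTCCCGC or TTTGCCGC in 4 (9.3%, against 2.8%). Of the members lower with wild type p53 that had a promoter, 17 of 38 held TTTGAA, as did 2 of the 5 others. A match is a description of the letters alone.

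Shown 5′ to 3′ on the strand of the gene, with these letters in capitals, are the stretches before the start free of annotated exons for FBXO5 (chr6:152983580-152983689, minus strand) and ERCC6L (chrX:72239028-72239277, minus strand), which fell past 2-fold, TOP2A (chr17:40417897-40418146, minus strand), which holds both elements and fell, CDC20 (chr1:43358731-43358980, plus strand), which holds both and was not called, and PTTG1 (chr5:160421712-160421854, plus strand), which rose. ATTGG is CCAAT, and TTCAAA is TTTGAA, read on the other strand.
FBXO5: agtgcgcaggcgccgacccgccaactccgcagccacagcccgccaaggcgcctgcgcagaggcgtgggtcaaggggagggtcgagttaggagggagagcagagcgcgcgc
ERCC6L: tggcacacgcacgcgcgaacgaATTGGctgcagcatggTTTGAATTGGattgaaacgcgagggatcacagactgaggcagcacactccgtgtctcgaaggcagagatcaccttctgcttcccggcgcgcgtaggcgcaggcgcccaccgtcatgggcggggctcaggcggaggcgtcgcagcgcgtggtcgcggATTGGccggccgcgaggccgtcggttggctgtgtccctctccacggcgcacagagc
TOP2A: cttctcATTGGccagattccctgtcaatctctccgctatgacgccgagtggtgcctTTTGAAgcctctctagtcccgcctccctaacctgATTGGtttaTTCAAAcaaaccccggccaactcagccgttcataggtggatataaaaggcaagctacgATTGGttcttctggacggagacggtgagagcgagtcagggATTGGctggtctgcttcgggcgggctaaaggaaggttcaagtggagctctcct
CDC20: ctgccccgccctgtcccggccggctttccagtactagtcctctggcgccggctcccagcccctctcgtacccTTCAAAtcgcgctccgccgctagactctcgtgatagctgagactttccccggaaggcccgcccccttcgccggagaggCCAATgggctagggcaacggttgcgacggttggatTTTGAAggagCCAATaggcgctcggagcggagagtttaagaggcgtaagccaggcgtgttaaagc
PTTG1: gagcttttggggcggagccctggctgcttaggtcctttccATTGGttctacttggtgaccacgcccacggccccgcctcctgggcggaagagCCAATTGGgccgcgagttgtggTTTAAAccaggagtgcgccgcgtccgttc
FBXO5 held none of the letters in its window and neither did CCSAP, while ERCC6L held 1 TTTGAA and 3 CCAAT, 1 of which shares a base with TTTGAA. TOP2A and CDC20 held 2 TTTGAA each, beside 4 and 2 CCAAT. PTTG1 held the TTTAAA variant and 3 CCAAT, of which a pair overlaps.

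Fewer of these genes were called at 6 h than at 24 h. At 6 h, wild type p53 against pGFP gave 2 lower members (1.59% of all genes) and 3 higher (8.68%), or 3 and 0 with library size alone, and the median log2 fold change was −0.04. FBXO5 was already lower, at 73.4, 64.6 and 73.6 CPM in pGFP and 48.4, 43.7 and 41.1 CPM with wild type p53 (log2 fold change −0.67, SE 0.10, adjusted P = 3.68e-05). CCSAP held 22.1, 20.8 and 24.5 CPM in pGFP and 19.4, 16.8 and 17.0 CPM with wild type p53 (log2 fold change −0.34, SE 0.11, adjusted P = 0.0478). Neither overlapped, but the call for CCSAP was lost without replicate 1 or 3 of pGFP (adjusted P of 0.0951 and 0.237) and without replicate 2 or 3 of wild type p53 (0.179 and 0.17).

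CENPU, KNL1 and PTTG1 were higher with wild type p53 at 6 h. These 3 were 5.56% of the members, a smaller share than the 8.68% of all genes, so they are described gene by gene only. CENPU, of the inner kinetochore, held 51.7, 46.4 and 50.8 CPM in pGFP and 59.9, 58.9 and 61.2 CPM with wild type p53 (log2 fold change 0.27, SE 0.08, adjusted P = 0.0231). KNL1, the scaffold on which BUB1 and BUB3 assemble, held 240, 226 and 240 CPM in pGFP and 294, 265 and 283 CPM with wild type p53 (log2 fold change 0.25, SE 0.07, adjusted P = 0.014), the opposite of its fall at 24 h. PTTG1 held 186, 187 and 176 CPM in pGFP and 207, 225 and 212 CPM with wild type p53 (log2 fold change 0.23, SE 0.06, adjusted P = 0.0195). Groups did not overlap for any of the 3 genes. Several of these calls were lost when a library was left out: CENPU without replicate 2 or 3 of pGFP (0.143 and 0.0507) or replicate 1 or 3 of wild type p53 (0.0909 and 0.09), KNL1 without replicate 2 of pGFP (0.0829) or replicate 1 or 3 of wild type p53 (0.135 and 0.0514), and PTTG1 without replicate 3 of pGFP (0.109) or replicate 1 or 2 of wild type p53 (0.061 and 0.122). All these values are adjusted P values, and all 3 calls were also lost with library size alone as the scaling (0.209, 0.127 and 0.178) and without the filter on low counts (0.0714, 0.0951 and 0.182).

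The difference between the responses at 24 h and 6 h was tested as an interaction. It was more negative at 24 h for 22 members, beside 2.77% of all genes, and for no member more positive. KNL1 had the smallest P value, with a difference of −0.69 (SE 0.10, adjusted P = 0.000132), from a rise at 6 h to a fall at 24 h. SPC25 differed by −1.04 (SE 0.18, adjusted P = 0.00126) and held 22.9, 22.7 and 22.5 CPM in pGFP and 25.4, 23.4 and 22.5 CPM with wild type p53 at 6 h, against 23.4, 26.0 and 23.6 CPM and 9.54, 13.1 and 14.6 CPM at 24 h. FBXO5 was not among the 22 (difference −0.40, SE 0.15, adjusted P = 0.111). Without replicate 3 of wild type p53 at 24 h the count was 36, beside 3.3% of all genes. With the replicate block 46 members were more negative and 1 was more positive, beside 8.64% and 9.63% of all genes.

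**Figure D3:**
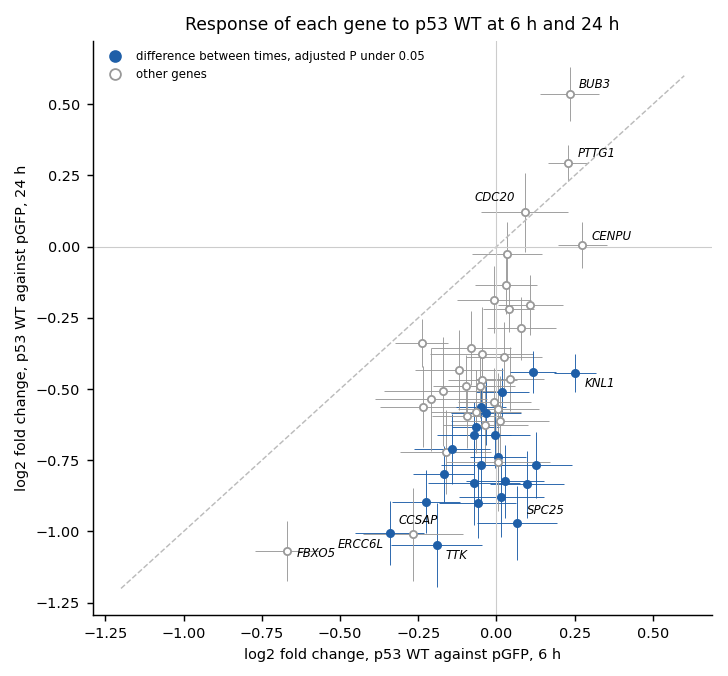
Each point is 1 gene, with its log2 fold change for wild type p53 against pGFP at 6 h on the horizontal axis and at 24 h on the vertical axis, standard errors as bars and the line of equal response dashed. Most genes lie near 0 at 6 h and below 0 at 24 h, and FBXO5 is the farthest left at −0.67; the 22 filled points differed between times.

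In pGFP alone 9 members were lower at 24 h than at 6 h (22.3% of all genes) and 6 were higher (19%), or 4 and 16 with library size alone, which moved the median of all genes by 0.21. CENPK (−0.72), BUB3 (−0.66), DSN1 (−0.63) and ZWINT (−0.46) were the lower ones with the smallest P values. INCENP (0.61), PTTG1 (0.32), CCSAP (0.44) and CDC25C (0.42) were higher. The counts of 9 and 6 were 16.7% and 11.1% of the members, smaller shares than among all genes, and the balance of directions turned with the scaling. Each comparison with pGFP above is within a time.

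RW mutant p53 left no member called at either time. In each comparison with pGFP 0.00469% of all genes was called. Log2 fold changes of the members lay between −0.15 and 0.10 at 6 h and between −0.13 and 0.09 at 24 h. No member had an unadjusted P under 0.05 in either comparison by edgeR, beside 1.02% of all genes at 6 h and 0.975% at 24 h, and DESeq2 also called none. At 24 h FBXO5 held 64.9, 68.6 and 64.0 CPM, inside the pGFP range, and TTK held 176, 192 and 167 CPM, to both sides of it.

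The vector with the lesion and active AGT, p53 O6-meG, gave a like count: 46 members were lower than pGFP at 24 h (11.3% of all genes) and 2 were higher (18.1%), with a median of −0.55. These comparisons share the pGFP libraries with those of wild type p53. None passed 2-fold. FBXO5 held 29.9, 36.9 and 38.4 CPM, TTK 77.9, 109 and 121 CPM, ERCC6L 24.6, 35.7 and 43.8 CPM and CCSAP 13.3, 18.1 and 18.2 CPM. CENPM, CENPU, AURKB, BIRC5, CDC20 and CDKN3 were not called, and BUB3 and PTTG1 were the higher ones. Set directly against wild type p53 at 24 h, p53 O6-meG changed none of the 54, with 0.00937% of all genes called. In that comparison 1 member had an unadjusted P under 0.05, DSN1 (log2 fold change 0.24, SE 0.10), and DESeq2 called none. Differences of the other members lay between −0.11 and 0.20.

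At 6 h, with 2 libraries, p53 O6-meG gave no lower member (0.53% of all genes) and 2 higher ones, CENPU and PTTG1 (4.32%), or 1 and 0 with library size alone. The 2 higher ones were 3.7% of the members, a smaller share than among all genes. CENPU held 62.6 and 65.7 CPM (log2 fold change 0.37, SE 0.09, adjusted P = 0.0106) and PTTG1 209 and 235 CPM (0.28, SE 0.07, adjusted P = 0.0196). PTTG1 lost its call without replicate 3 of p53 O6-meG (adjusted P = 0.367) or of pGFP (0.0988), and CENPU without replicate 3 of p53 O6-meG (0.12) or replicate 2 of pGFP (0.0714). The libraries for FBXO5 were 51.6 and 73.4 CPM, the lower of them below pGFP and the higher inside its range, so the pair gave no call (log2 fold change −0.18, SE 0.12). Without replicate 3, FBXO5 was called lower, at −0.45 (adjusted P = 0.0484). DESeq2 called 1 member lower at 6 h, CCSAP, and 6 members had an unadjusted P under 0.05 by edgeR.

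In p53 TM the fall was smaller. Against pGFP at 24 h 17 members were lower (1.68% of all genes) and none was higher (9%), with a median log2 fold change of −0.32. In 37 members every p53 TM library lay below every pGFP library, beside 8.06% of all genes. The count of 17 moved with the setting. It was 45 with the replicate block, 34 by DESeq2 and 41 with library size alone, beside 6.64%, 3.73% and 4.24% of all genes. It was 3 without replicate 1 of p53 TM (0.661% of all genes). Without replicates 1, 2 and 3 of pGFP it was 9, 7 and 6 (0.898%, 0.899% and 1.1%). Called lower were NDC80, SPC25, DSN1, ZWINT, CENPE, BUB1, TTK, INCENP, CDCA8, SGO1, TOP2A, NUSAP1, PRC1, RACGAP1, FBXO5, ESPL1 and MYBL2. None of the 8 inner kinetochore genes was called, but with the replicate block CENPA (adjusted P = 0.000349), CENPH (0.00279), CENPI (0.000391) and CENPN (0.0443) were called lower, and BUB3 was called higher (0.0483).

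To ask whether repression was lost, p53 TM was compared with wild type p53 at 24 h. Of the 54 members 21 were higher in p53 TM (9.29% of all genes) and 3 were lower (11.9%), with a median of 0.24 against −0.0076 over all genes. The group means were ordered pGFP, p53 TM, wild type p53 from high to low in 44 members and in 25.7% of all genes. All 21 were among the 45 lower with wild type p53, or 46.7% of them. Of the 3098 genes of any kind called lower with wild type p53, 51.1% were higher in p53 TM, so the share among the mitotic genes was near that of repressed genes at large. These counts share the wild type p53 libraries. No difference reached 2-fold.

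CCSAP had the smallest P value, with 24.0, 26.2 and 26.3 CPM in p53 TM against 13.04, 14.6 and 17.8 CPM with wild type p53 (log2 fold change 0.75, SE 0.11, adjusted P = 3.81e-05). Its p53 TM libraries lay between those of wild type p53 and those of pGFP, touching neither, and p53 TM against pGFP was not called (−0.25, SE 0.11, adjusted P = 0.165) unless the replicate block was used (0.0487). FBXO5 held 43.8, 46.8 and 46.4 CPM in p53 TM, again between the other groups (0.56, SE 0.10, adjusted P = 0.000443). CDC25C held 25.7, 30.3 and 35.2 CPM, above wild type p53 in all 3 libraries (0.60, SE 0.13, adjusted P = 0.00132).

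DSN1 held 41.7, 49.1 and 45.8 CPM in p53 TM (0.49, SE 0.10, adjusted P = 0.000906), NUSAP1 134, 162 and 160 CPM (0.44, SE 0.09, adjusted P = 0.000998) and CENPN 86.6, 98.7 and 98.9 CPM (0.39, SE 0.08, adjusted P = 0.00101). All libraries of these 3 genes lay above those of wild type p53 and below those of pGFP. ERCC6L held 36.1, 49.7 and 49.3 CPM, overlapping wild type p53 (0.52, SE 0.16, adjusted P = 0.0229), and TTK 116, 145 and 140 CPM, which did not overlap (0.58, SE 0.15, adjusted P = 0.00527). The call for ERCC6L was lost without replicate 1 or 2 of wild type p53 (adjusted P of 0.132 and 0.0544) and without replicate 2 or 3 of p53 TM (0.103 and 0.0974). TOP2A held 277, 329 and 291 CPM (0.39, SE 0.12, adjusted P = 0.0169), a call lost without replicate 1 of wild type p53 (0.101) or replicate 2 of p53 TM (0.1). ANLN held 297, 363 and 376 CPM, overlapping wild type p53 (0.32, SE 0.11, adjusted P = 0.0452), a call lost without replicate 1 or 2 of wild type p53 (0.198 and 0.102) or replicate 2 or 3 of p53 TM (0.15 and 0.191).

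By role the outer kinetochore held the most calls, with 8 of 12 higher in p53 TM than with wild type p53: SPC24, SPC25, NDC80, KNL1, DSN1, ZWINT, SKA1 and CENPE. Spindle assembly gave 4 of 8 (CCSAP, NUSAP1, ASPM, CKAP2L), the passenger complex and chromatid genes 3 of 8 (SGO1, ERCC6L, TOP2A), the inner kinetochore 2 of 8 (CENPN, CENPC) and mitotic entry and exit 2 of 7 (FBXO5, CDC25C). Cytokinesis gave 1 of 4, ANLN, and the checkpoint 1 of 5, TTK. Of 17 alternatives the call held in 7 for CKAP2L, 9 for ANLN, 11 for NDC80 and ERCC6L, 12 for SPC25, SKA1 and CENPC, 13 for ASPM, 14 for TOP2A, 15 for SPC24 and 16 for TTK and SGO1. CKAP2L was among those lost by DESeq2. AURKA (0.0033), CENPH (−0.0081) and FOXM1 (−0.0023) showed next to no difference in the fit, with standard errors of 0.18, 0.08 and 0.11, and the sign for FOXM1 turned with the scaling.

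In the opposite direction, BUB3, PTTG1 and CDC20 were lower in p53 TM than with wild type p53. They were 5.56% of the members, a smaller share than the 11.9% of all genes. BUB3 held 166, 173 and 147 CPM (−0.38, SE 0.10, adjusted P = 0.00603) and PTTG1 227.0, 236 and 245 CPM (−0.24, SE 0.06, adjusted P = 0.00752). Neither overlapped wild type p53, and neither was called against pGFP (0.16, SE 0.10 and 0.05, SE 0.06). With the replicate block BUB3 was called against pGFP (adjusted P = 0.0483) and PTTG1 was not (0.585). The call of PTTG1 against wild type p53 was lost without replicate 1 of wild type p53 (adjusted P = 0.0971). CDC20 held 169, 207 and 236 CPM in p53 TM and 233, 257 and 325 CPM with wild type p53, which overlap unless read by replicate number (−0.41, SE 0.14, adjusted P = 0.0351). The call for CDC20 held in 11 of 17 alternatives and was lost without replicate 1 or 2 of p53 TM, without replicate 3 of wild type p53, without the filter on low counts, with only the groups compared and on 24 h libraries alone (adjusted P up to 0.222). Its pGFP libraries were 211, 256 and 282 CPM. In each pair of the same replicate number p53 TM lay below pGFP for CDC20 (log2 differences −0.32, −0.30 and −0.26). That difference was called with the replicate block (adjusted P = 3.68e-05) but not in the fit without it. Unlike BUB3 and PTTG1, CDC20 was not called higher with wild type p53 than pGFP unless the block was used.

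Read within a replicate number, 38 of the 54 were higher in p53 TM than with wild type p53 in all 3 pairs, beside 29% of all genes. The median differences of the pairs were 0.31, 0.34 and 0.16. All 3 p53 TM libraries lay above all wild type p53 libraries in 13 of the 54 members, beside 14.9% of all genes. With the replicate block the count of higher members was 33 in place of 21, and the share of all genes was 16.8% in place of 9.29%. Without replicate 1 of wild type p53 the count was 13, beside 7.25% of all genes. The members added by the block were CENPI, CENPK, NUF2, CENPF, BUB1, BUB1B, INCENP, CDCA8, HMMR, RACGAP1, UBE2C and MYBL2.

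**Figure D4:**
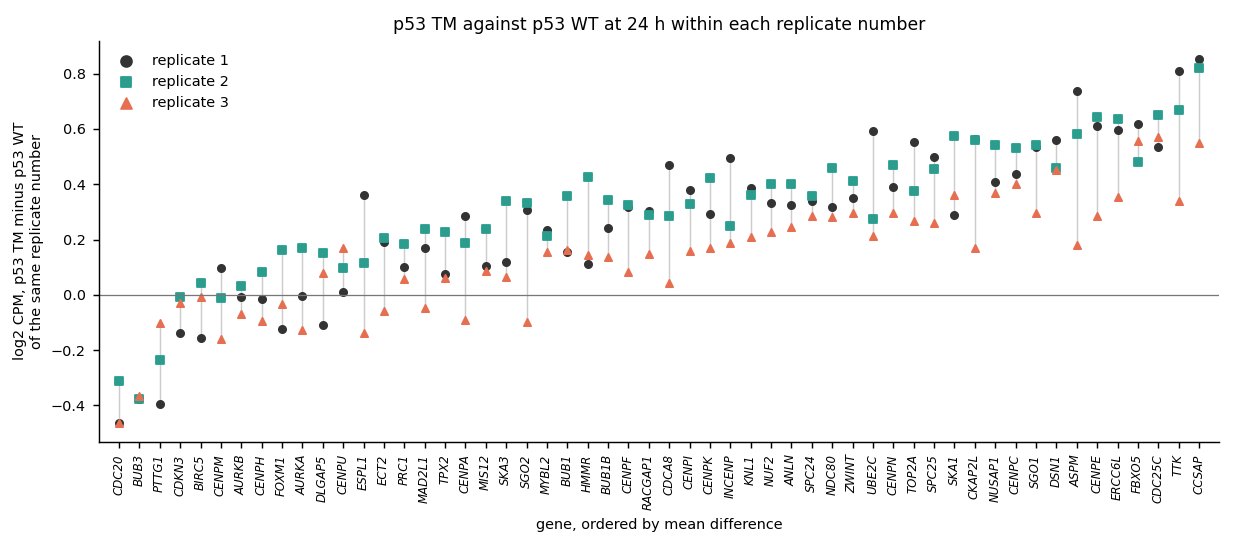
For each gene on the horizontal axis 3 points give the difference in log2 CPM between p53 TM and wild type p53 libraries of the same replicate number at 24 h. In 38 genes all 3 points lie above 0; CDC20, BUB3 and PTTG1 at the left lie below 0, and CCSAP at the right has the highest mean.

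Against p53 O6-meG, which carried the same vector without O6-bzG, p53 TM had 8 higher members (3.47% of all genes) and 2 lower ones (6.58%) at 24 h. The higher ones were CCSAP (0.62), CDC25C (0.49), CENPE (0.47), FBXO5 (0.38), CENPN (0.30), NUSAP1 (0.30), ZWINT (0.27) and KNL1 (0.23), and the lower ones BUB3 (−0.36) and PTTG1 (−0.23). In 37 members all 3 pairs of the same replicate number were higher, beside 27.5% of all genes. The count of 8 was 30 with the replicate block, beside 10.1% of all genes. It was 1, 3 and 19 without replicates 1, 2 and 3 of p53 O6-meG, and 15, 2 and 2 without those of p53 TM.

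**Figure D5:**
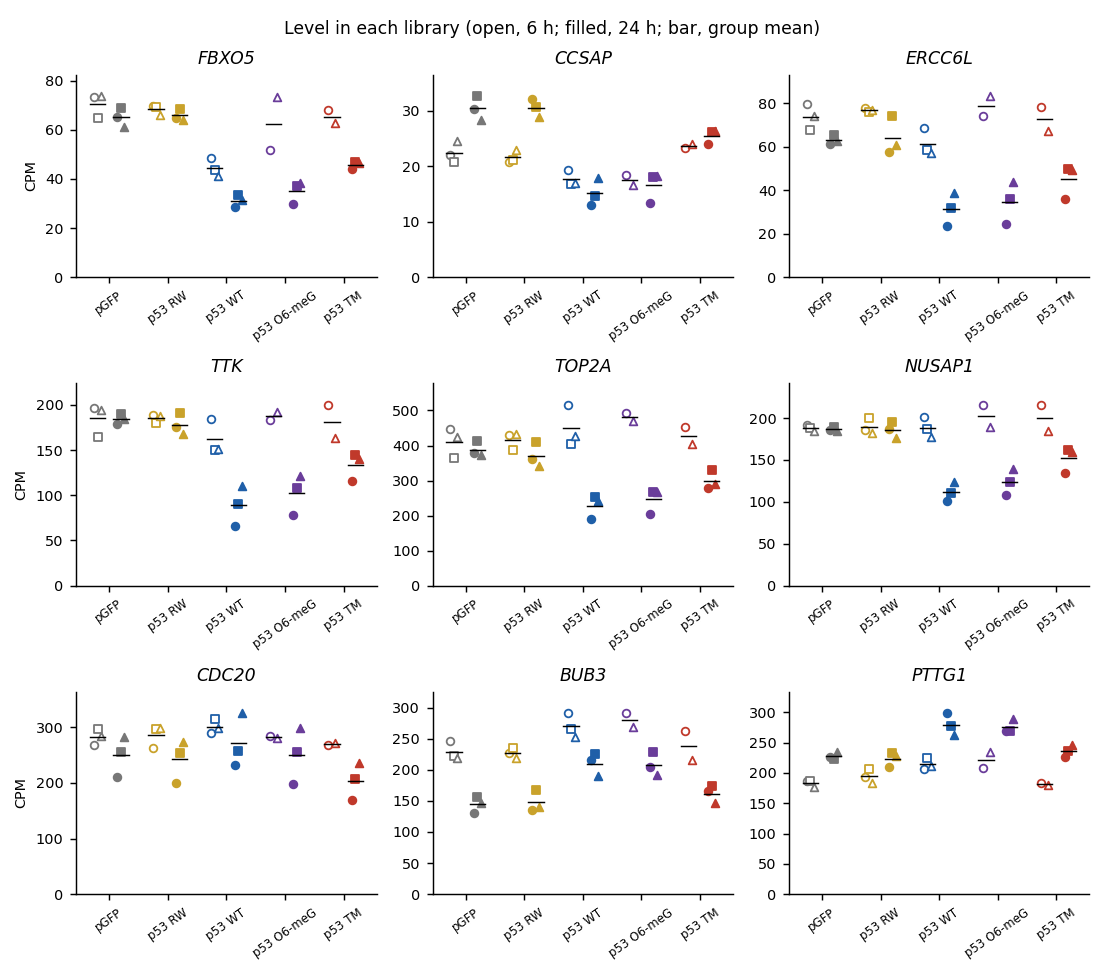
Levels in CPM are shown by library for 9 genes, with open symbols at 6 h, filled symbols at 24 h, bars at group means and symbols for replicate numbers. FBXO5, CCSAP, ERCC6L, TTK, TOP2A and NUSAP1 are lowest with wild type p53 at 24 h and intermediate in p53 TM, while BUB3 and PTTG1 are highest with wild type p53 or p53 O6-meG at that time.

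At 6 h p53 TM, with 2 libraries, had no member called against pGFP (0.00937% of all genes lower, 0.192% higher). By edgeR 2 members had an unadjusted P under 0.05, and DESeq2 called none lower. Against wild type p53 at 6 h 3 members were higher (2.77% of all genes) and 2 were lower (8.14%), or 5 and 0 with library size alone. FBXO5 held 68.0 and 62.5 CPM in p53 TM (0.56, SE 0.11, adjusted P = 0.00135) and CCSAP 23.3 and 24.1 CPM (0.42, SE 0.12, adjusted P = 0.0248), each above all wild type p53 libraries of that time. MIS12 was the other higher one, at 33.9 and 33.2 CPM against 26.7, 26.8 and 26.7 CPM (0.33, SE 0.09). PTTG1 (−0.24, SE 0.07) and KNL1 (−0.24, SE 0.08) were lower. The count of 3 was 1 without replicate 2 or 3 of wild type p53 or replicate 1 of p53 TM.

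Other genes of the same machinery, from a list of 48, moved in part with the members. At 24 h 29 of them were lower with wild type p53 and 3 were higher, with a median of −0.31, beside the 14.5% and 20.5% of all genes given above. CENPQ (−0.95) and CENPO (−0.76), of the inner kinetochore, and CDCA5 (−0.74), sororin, were lower. CENPT (0.39), MAD1L1 (0.30) and NDEL1 (0.34) were higher. Against wild type p53, p53 TM had 11 of the 48 higher and none lower, beside 9.29% and 11.9% of all genes. Of 16 subunits and partners of the anaphase promoting complex 1 was lower, CDC27 (−0.38), and 1 was higher, ANAPC2 (0.27). Of 11 DREAM and MuvB genes RBL1 (−0.70) and LIN52 (−0.38) were lower, and LIN54 (0.46), RBL2 (0.27) and TFDP2 (0.19) were higher. These lists are short, and their counts are read against the same shares of all genes.

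Per length, the members spanned a wide range in pGFP at 24 h. TPX2 was the highest at 132 ± 9.11 RPKM (CPM per kilobase of exon, SD, n = 3), with CDC20 at 124 ± 17.8 and PTTG1 at 115 ± 2.95 within each other's spread. CENPC was the lowest at 2.87 ± 0.459, below CCSAP at 4.86 ± 0.343. Of the 54 genes 21 overlap a gene on the opposite strand, 14 of them a coding one, by whole gene spans with introns included. Beside those named above, CENPN, CENPU, NUSAP1, ANLN, RACGAP1, CDC25C and FOXM1, all given library by library, overlap a coding one. Their counts are uncertain as far as the strand setting of the counting is unknown.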

How the data were processed

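Total RNA of sorted GFP-positive H1299 cells, depleted of rRNA, was made into 30 libraries with a stranded kit and sequenced as single reads. The authors deposited raw read counts per gene, and per the labels and methods reads were aligned to hg38 with STAR 2.5.3a and counted with featureCounts of Subread 1.5.2. Which strand setting was used in counting is not given in the sources used here. A normalized table, each column of which is a raw column times a single factor, was not used. The study tested with DESeq2 1.20. Libraries were grouped by their labels. For 2 libraries at 6 h the title and the genotype field name different groups, and they entered no comparison.

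Counts were tested in R 4.3.3 with the quasi-likelihood test of edgeR 4.0.16 (TMM scaling, filterByExpr, which kept 21335 of 39353 genes with a count) in a fit of 28 libraries in 10 groups. The Benjamini-Hochberg adjustment covered every gene tested, and a call is an adjusted P under 0.05. SE is the standard error of the log2 fold change. CPM values are counts over the TMM-scaled library size, and RPKM values divide them by exon length (GENCODE v44). The procedure was tested on simulated data. The methods call replicates biological triplicates, and nothing says that they came from separate cultures, so P values measure the spread between these libraries. At 24 h same-numbered libraries of different groups deviated together in 30 of 30 pairs of libraries (correlation of deviations 0.208 to 0.655). The median for different numbers was −0.308, but deviations were taken from group means, so this value follows from that for the same numbers. The numbers thus pair the samples at 24 h. The fit of 28 libraries has no term for the replicate number, since the study's methods name only time and vector. Its 24 h calls leave this pairing out, and those with the replicate block take it in. At 6 h 12 of 23 pairs were over 0.1. The alternatives were DESeq2 1.42.0, its size factors, library size alone, no filter or at least 10 counts in every library, only the groups compared, the replicate block, each placement of the 2 libraries and leaving out each replicate. Fits of the 24 h libraries alone were chosen after seeing the data.

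The members and lists were chosen with earlier results of these data known. Libraries are given for the 2 members of each role with the smallest P for wild type p53 against pGFP at 24 h, CCSAP, ERCC6L and FBXO5, members called against pGFP at 6 h and the 6 with the smallest P for p53 TM against wild type p53. CDC20, SPC25 and MIS12 were added after their values were seen. Some items are not reported here.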

Additional observations from a re-analysis of the deposited data

Results flagged for a closer look

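The response to wild type p53 differed between the times in 22 members, by an interaction term in the edgeR fit, and was more negative at 24 h in each of them. The 5 with the smallest P were KNL1 (difference of log2 fold changes −0.69), NUSAP1 (−0.75), SPC25 (−1.04), NDC80 (−0.93) and TOP2A (−0.89).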

How the results depend on the processing

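Members lower with wild type p53 than pGFP at 24 h numbered 45, or 38 to 46 with 1 library left out and 4 at 2-fold or more. For p53 O6-meG at 24 h the 46 became 34 to 46 with 1 library left out. RW mutant p53 (both times) and p53 O6-meG against wild type p53 stayed at 0 under every alternative run, left-out libraries included. The 17 members lower with p53 TM than pGFP at 24 h became 28 with DESeq2 size factors, 41 with library size alone, 34 by DESeq2, 45 with the replicate block, 48 with the block on 24 h libraries, 11 on 24 h libraries without it and 3 to 15 with 1 library left out. The 21 members higher with p53 TM than wild type p53 at 24 h became 9 with only the groups compared, 33 with the replicate block, 32 with the block on 24 h libraries, 13 on 24 h libraries without it, 0 at 2-fold and 13 to 29 with 1 library left out. Against p53 O6-meG the 8 became 18 with library size alone, 0 with only the groups compared, 30 with the replicate block, 29 with the block on 24 h libraries and 1 to 19 with 1 library left out. The 22 with a more negative response at 24 h became 46 with the replicate block and 18 to 36 with 1 library left out, and the 15 changed in pGFP between times 23 and 11 to 16. Over all genes the block raised the matching shares as well. They went from 1.68% to 6.64% for p53 TM against pGFP and from 9.29% to 16.8% against wild type p53. Against p53 O6-meG they went from 3.47% to 10.1%, and for the interaction from 2.77% to 8.64%. Beyond these counts and the 24 h calls given in the report, the block changed no other call of wild type p53 against pGFP at 24 h.

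At 6 h, where the numbers were not shown to pair, the 2 members lower with wild type p53 became 1 without the filter, 11 with only the groups compared, 4 with the replicate block, 1 with the 2 libraries placed by the genotype field and 1 to 2 with 1 library left out. For p53 O6-meG the 0 became 1 with library size alone, by DESeq2, with only the groups compared or with the libraries placed by title, 3 with the block and 0 to 1 with 1 library left out. For p53 TM the 0 became 1 with only the groups compared and 0 with any library left out. The 3 members higher with p53 TM than wild type p53 became 5 with DESeq2 size factors, library size alone, DESeq2, at least 10 counts or placement by title, 8 with only the groups compared, 6 with the replicate block, 0 with placement by the genotype field and 1 to 3 with 1 library left out.

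Over the named members 722 alternative values kept direction and side of the threshold, 60 lost and 24 gained a call, and 19 changed sign, none of them called in either fit. CENPU for wild type p53 at 24 h became −0.0159 with DESeq2 size factors, −0.127 with library size alone, −0.0162 by DESeq2, −0.0811 without the filter, −0.0017 with only the groups compared, −0.0189 and −0.0137 on 24 h libraries with and without the block, and −0.1311 to 0.0577 with 1 library left out. KNL1 for p53 O6-meG at 6 h became −0.006 with library size alone and −0.0344 without replicate 1 of p53 O6-meG, where FBXO5 became 0.0598, against −0.4485 without replicate 3. FOXM1 for p53 TM against wild type p53 became 0.051 with library size alone, 0.0399 without the filter, 0.0012 with the block and −0.1001 to 0.0777 with 1 library left out. Library size alone moved the median of all genes by −0.12 for wild type p53 at 24 h and by 0.21 for time in pGFP. The cause of these changes was not tested.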

Other observations

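The 2 libraries at 6 h whose labels name both groups were read one by one. In the library whose title begins with the O6-bzG group, FBXO5 was at 66.1 CPM, CCSAP at 20.4, ERCC6L at 70.5, CENPU at 58.6, KNL1 at 226.5, PTTG1 at 220.8 and CDKN1A at 50.2 CPM. In the library whose title begins with the group without O6-bzG, FBXO5 was at 44.7 CPM, CCSAP at 16.7, ERCC6L at 59.0, CENPU at 62.3, KNL1 at 236.6, PTTG1 at 234.2 and CDKN1A at 249.7 CPM. The medians of the 54 genes relative to pGFP were −0.0035 and −0.10 on the log2 scale. In the libraries with a group at 6 h, CDKN1A was at 65.9 and 57.9 CPM in p53 TM and at 269 and 261 CPM in p53 O6-meG. The group of the 2 libraries was not set from these values.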
